A study of Mus musculus with 2 samples.

Results

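The genes described are Vsir, Lgals9, Cd276, Nectin2, Pvr, Cd47, Sirpa, Cd86, Icosl and Cd200. They are the 10 of the 55416 genes in both count tables that were chosen by name as ligands, or ligand and receptor in the case of Cd47 and Sirpa, of immune checkpoints other than PD-L1. All 10 were found under these symbols in both libraries. They were measured in 1 muscle library and 1 lung library of mouse cells. The muscle library came from gastrocnemius, the lung library from lung, and both from animals that the labels call TB mice of a CAC mouse model, short names whose meaning was not assumed. In both tissues the cells had been selected on beads for CD45, the surface protein common to white blood cells, after Liberase TL and DNase I digestion and lysis of red cells. The labels give no treatment, age or number of mice for either library. The series design also names muscle samples given antibodies (anti-PD-L1, anti-CD8a or IgG), which were not analysed here.

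A checkpoint ligand is a protein on the surface of a tissue cell or an antigen-presenting cell that binds a receptor on a lymphocyte or a phagocyte and raises or lowers its activity. CD155 (Pvr) and CD112 (Nectin2) are nectin-family adhesion proteins. Both bind the activating receptor CD226, and CD155 also binds the inhibitory receptor TIGIT. CD86 and ICOS ligand (Icosl) are costimulatory ligands, CD86 for CD28 and CTLA-4 and ICOS ligand for ICOS. CD200 binds an inhibitory receptor, CD200R1, that is carried by myeloid cells. CD47 is a widely made membrane protein that binds SIRP alpha (Sirpa) on phagocytes and restrains engulfment. VISTA (Vsir), B7-H3 (Cd276) and galectin-9 (Lgals9) are further proteins with reported inhibitory roles, galectin-9 as a secreted lectin that binds TIM-3 (Havcr2). A lymphocyte that enters lung or muscle crosses vessel endothelium and meets fibroblasts and macrophages, any of which can carry such ligands.

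The stretches of DNA just before the starts of 5 of these genes are printed because the genes divide into those with higher levels in vessel endothelium than in leukocytes of muscle (Cd200, Nectin2 and Lgals9) and those with lower levels there (Vsir and Icosl). Each is the 250 bases before the RefSeq start on build GRCm38.p6, at chr16:45409054-45409303 on the minus strand for Cd200, chr7:19749574-19749823 on the minus strand for Nectin2, chr11:78984925-78985174 on the minus strand for Lgals9, chr10:60346601-60346850 on the plus strand for Vsir and chr10:78069118-78069367 on the plus strand for Icosl. Capitals mark matches, on either strand, to the GC box GGGCGG, the ETS family core CCGGAAG or the paired TTTC (TTTC, 2 bases of any kind, TTTC) of interferon response elements.
Cd200: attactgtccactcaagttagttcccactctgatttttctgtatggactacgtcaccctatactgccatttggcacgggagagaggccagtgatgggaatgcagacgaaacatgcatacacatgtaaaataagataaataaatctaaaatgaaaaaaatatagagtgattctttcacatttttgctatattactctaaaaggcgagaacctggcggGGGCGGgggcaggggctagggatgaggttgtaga
Nectin2: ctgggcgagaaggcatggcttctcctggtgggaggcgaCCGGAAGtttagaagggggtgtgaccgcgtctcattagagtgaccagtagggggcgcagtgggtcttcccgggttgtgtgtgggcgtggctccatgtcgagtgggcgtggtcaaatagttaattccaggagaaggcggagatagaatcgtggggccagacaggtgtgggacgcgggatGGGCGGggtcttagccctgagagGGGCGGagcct
Lgals9: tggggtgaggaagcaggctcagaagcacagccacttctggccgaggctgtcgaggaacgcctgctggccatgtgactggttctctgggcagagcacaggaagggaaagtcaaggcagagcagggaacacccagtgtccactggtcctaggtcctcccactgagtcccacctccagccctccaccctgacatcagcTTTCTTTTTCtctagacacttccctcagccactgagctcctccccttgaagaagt
Vsir: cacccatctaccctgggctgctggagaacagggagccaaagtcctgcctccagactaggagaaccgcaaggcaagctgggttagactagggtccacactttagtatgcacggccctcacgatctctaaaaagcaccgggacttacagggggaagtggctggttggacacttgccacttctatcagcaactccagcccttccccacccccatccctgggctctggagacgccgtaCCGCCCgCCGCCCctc
Icosl: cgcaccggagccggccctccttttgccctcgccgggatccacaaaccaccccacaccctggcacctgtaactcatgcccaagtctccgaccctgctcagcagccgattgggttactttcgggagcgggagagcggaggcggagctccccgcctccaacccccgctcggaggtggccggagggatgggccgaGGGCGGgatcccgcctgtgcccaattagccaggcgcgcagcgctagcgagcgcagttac
The letters do not divide the way the levels do. A GC box stood in 4 of the 5 stretches, 1 time in Cd200, 2 times in Nectin2, 2 times in Vsir and 1 time in Icosl, and 32.74% of all 32851 such windows in the RefSeq table hold one. Nectin2 alone of the 5 held the ETS core, which 6.907% of windows hold, and Lgals9 alone held the paired TTTC motif, which 2.977% hold. None of the 5 held TATAAA (12.37% of windows) or the AP-1 motif TGACTCA (4.463%). The motifs were chosen after the sequences had been seen, a match is a string of letters and not a binding site, and the counts themselves were made on another build, GRCm39, so the stretches were joined to them by gene symbol only. Of the 10 genes 7 had an entry in that table.

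The deposited tables held 14056163 UMIs over 5547 muscle barcodes and 34751225 UMIs over 8481 lung barcodes, a UMI being 1 tagged RNA molecule. A barcode was kept with 200 or more genes and a mitochondrial share of UMIs no higher than 10%, which left 2243 in muscle, 40.4% of those in the table, and 8194 in lung, 96.6%, with medians of 3106 and 2286 UMIs. In muscle 3301 barcodes were over the mitochondrial limit, against 273 in lung. The libraries shared 24 of the barcode sequences kept. Cells were sorted by marker genes into lineages and narrower classes, each cell needing at least 2 UMIs from at least 2 markers of its class and at least 80% of its marker UMIs on that class, with none of the 10 genes among the markers. This gave 985 endothelial, 419 stromal, 305 leukocyte, 62 Schwann and 29 satellite cells in muscle. In lung it gave 39 endothelial, 325 epithelial, 27 stromal and 6908 leukocyte cells. No muscle cell was gated epithelial. Of the leukocytes, 92 in muscle and 2368 in lung fitted no narrow class, so orders among narrow classes leave them out.

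The CD45 label went with most lung cells but few muscle cells. Leukocytes were 13.6% of the kept muscle cells and 84.3% of the kept lung cells. Ptprc, the gene of CD45, which was left out of the gates, stood at 0.895 CPM in muscle endothelial cells and 16.9 CPM in lung endothelial cells, against 527 CPM in muscle leukocytes and 535 CPM in lung leukocytes. CPM are counts per 1000000 counts of the class. Pecam1, an endothelial gene also left out, stood at 1347 CPM in muscle endothelial cells and 1040 CPM in lung endothelial cells, against 19.8 and 51.1 CPM in leukocytes of the same libraries. Each lineage thus held its own defining gene, and the endothelial cells of the muscle library held almost no RNA of the surface protein that the beads select. The summed level of the 8 leukocyte markers was 17.0 CPM in muscle endothelial cells and 8222 CPM in muscle leukocytes. In lung it was 194 CPM in endothelial cells, 375 CPM in epithelial cells and 8160 CPM in leukocytes, with all 8 detected in each. The part that such RNA plays in the lung values below was not tested.

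With 1 library per tissue no comparison has a replicate, and no test was made. A level is the CPM of counts summed over the cells of a class. Intervals beside levels, shares and ratios are exact 95% intervals that cover counting error only, not the spread between mice or libraries. A gene was called apart by size alone, where the ratio of levels was at least 2-fold and the higher side held at least 20 counts. A side with no count was set at a floor of 3 counts. Ratios were formed only between classes of at least 30 cells. In muscle this left out dendritic cells (13 cells), T or NK cells (6), B cells (3) and satellite cells (29). In lung it left out stromal cells (27) and every narrow class of endothelial and stromal cells.

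**Figure D1:**
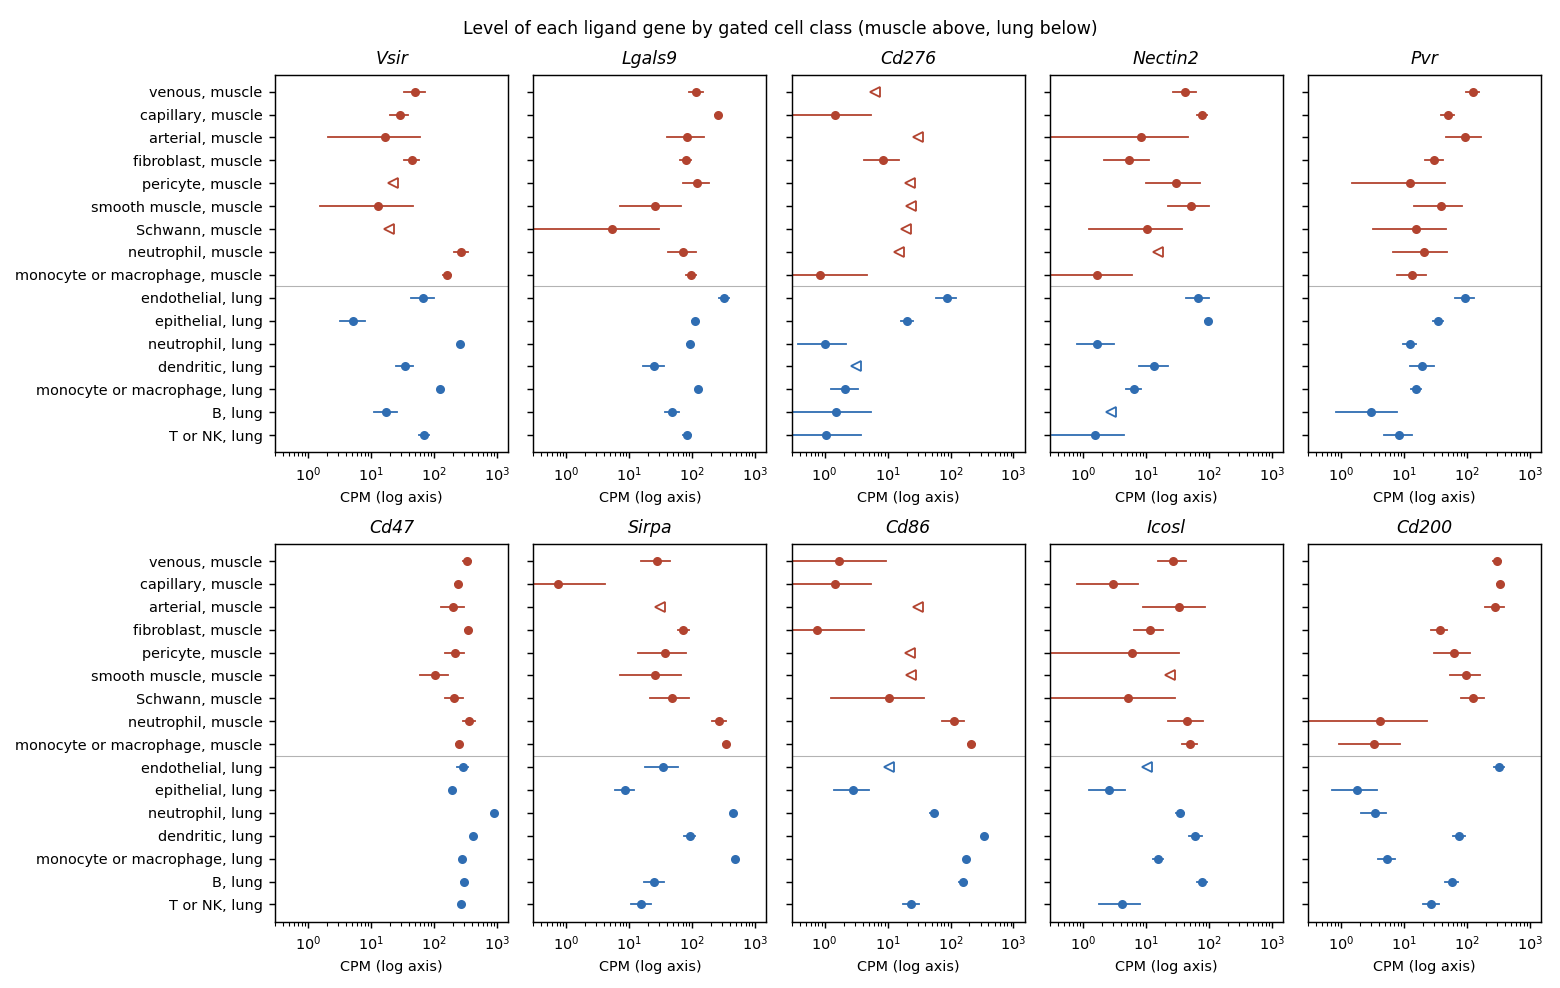
Level of each of the 10 genes in CPM on a log axis (points, with exact 95% Poisson intervals as lines), in the 16 cell classes with at least 30 cells, muscle classes above the line and lung classes below it. Open triangles are the upper limits of classes with no count. Cd47 stayed between 103 and 891 CPM in all 16 classes, whereas Cd200 and Cd86 were high in largely different classes.

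In muscle 9 of the 10 genes had enough counts to compare, and Cd276 had not. Nectin2, Cd200, Pvr and Lgals9 were higher in endothelial cells than in leukocytes, Vsir, Sirpa, Cd86 and Icosl were lower, and Cd47 was level. Of the 9 genes, 4 were at least 2-fold higher and 4 at least 2-fold lower in muscle endothelial cells than in muscle leukocytes. Such differences were common between these cells, since 50.4% of the 10684 genes compared were at least 2-fold apart, 32.8% higher and 17.6% lower. The median log2 ratio of the 9 was -0.15, against 0.41 over all genes compared. In muscle stromal cells 2 of 9 were higher and 4 lower than in leukocytes, beside 51.4% of all genes apart, 35.0% higher and 16.4% lower, with medians of 0.02 for the 9 and 0.44 for all genes.

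The same lineages were set against leukocytes in lung. In lung endothelial cells 5 of 10 genes were higher and 3 lower than in lung leukocytes, beside 31.5% of the 10085 genes compared, 12.2% higher and 19.3% lower. The 39 lung endothelial cells hold few counts, and their deepest 10% of cells hold 38.7% of their UMIs. In lung epithelial cells 3 of 10 were higher and 6 lower, beside 47.9% of 14228 genes, 20.3% higher and 27.5% lower. The deepest 10% of lung epithelial cells hold 44.4% of their UMIs. Cd276, Nectin2 and Pvr were called higher in lung endothelial and lung epithelial cells alike, and Sirpa, Cd86 and Icosl were called lower in both. Cd200 was called higher in lung endothelial cells and lower in lung epithelial cells. The medians of the 10 were 0.58 in lung endothelial cells and -2.09 in lung epithelial cells, against 0.00 and -0.11 over all genes.

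**Figure D2:**
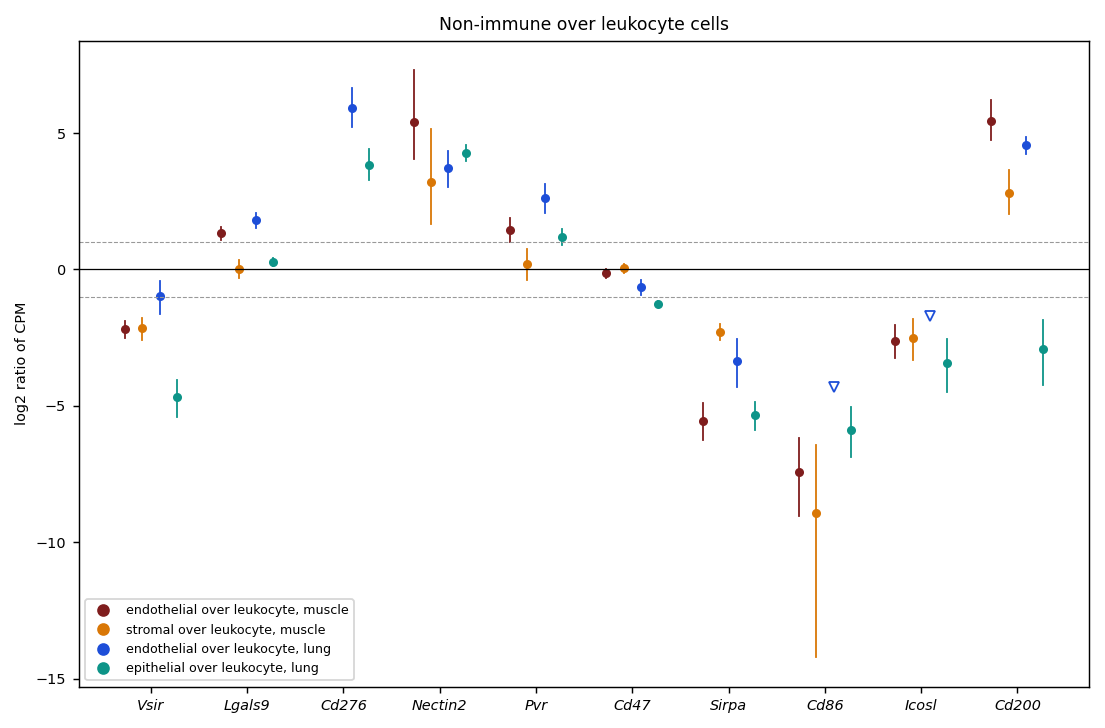
Log2 ratio of CPM of each gene in muscle endothelial, muscle stromal, lung endothelial and lung epithelial cells over the leukocytes of the same library, with exact 95% intervals of counting error. Dashed lines mark 2-fold, open triangles are bounds from a class with no count, and genes under 20 counts on the higher side are not drawn. Nectin2 lies above the upper dashed line in all 4 comparisons, while Sirpa, Cd86 and Icosl lie below the lower one in all 4.

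Between tissues the genes differed less. Muscle leukocytes had 0 of 10 genes at least 2-fold higher and 2 lower (Cd276 and Nectin2) than lung leukocytes, beside 23.9% of the 12973 genes compared, 4.10% higher and 19.8% lower. The median log2 ratio of the 10 was -0.31, against -0.28 over all genes. The mix of cells differs between these leukocytes. Monocytes or macrophages were 42.6% of muscle leukocytes and 17.0% of lung leukocytes, T or NK cells 1.97% and 8.24%, and neutrophils 61 of 305 and 2195 of 6908 cells. Within monocytes or macrophages 1 of 9 genes was higher in muscle (Icosl) and 1 lower (Nectin2), beside 18.5% of 9198 genes, 4.75% higher and 13.7% lower. Within neutrophils 1 of 5 was higher (Cd86) and 1 lower (Cd47), beside 27.9% of 7536 genes, 2.71% higher and 25.2% lower. Within endothelial cells 0 of 8 were higher and 2 lower (Cd276 and Vsir), beside 29.8% of 7135 genes, 20.9% higher and 8.93% lower, with a median log2 ratio of -0.38 for the 8 and 0.27 for all genes. The gated vessel types differ between these cells. In muscle 463 of 985 were capillary, 100 venous and 31 arterial, against 0, 4 and 0 of 39 in lung. The part that this plays in the endothelial ratios was not tested. The 2 of 10 in leukocytes, 2 of 9 in monocytes or macrophages and 2 of 8 in endothelial cells are near the shares over all genes. In leukocytes the Cd276 ratio rests on 1 muscle count (0.283, from 0.00699 to 1.67, a call lost at a gate purity of 60%, without the deepest 10% of cells or without the top cell) and the Nectin2 ratio on 4 (0.317, from 0.0851 to 0.828). Icosl and Cd200 fell just short of a call there, with ratios of 1.97 (1.63 to 2.36) and 0.501 (0.289 to 0.813). In monocytes or macrophages the Nectin2 ratio rests on 2 muscle counts, and its interval includes 1 (0.264, from 0.0311 to 1.0025).

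**Figure D3:**
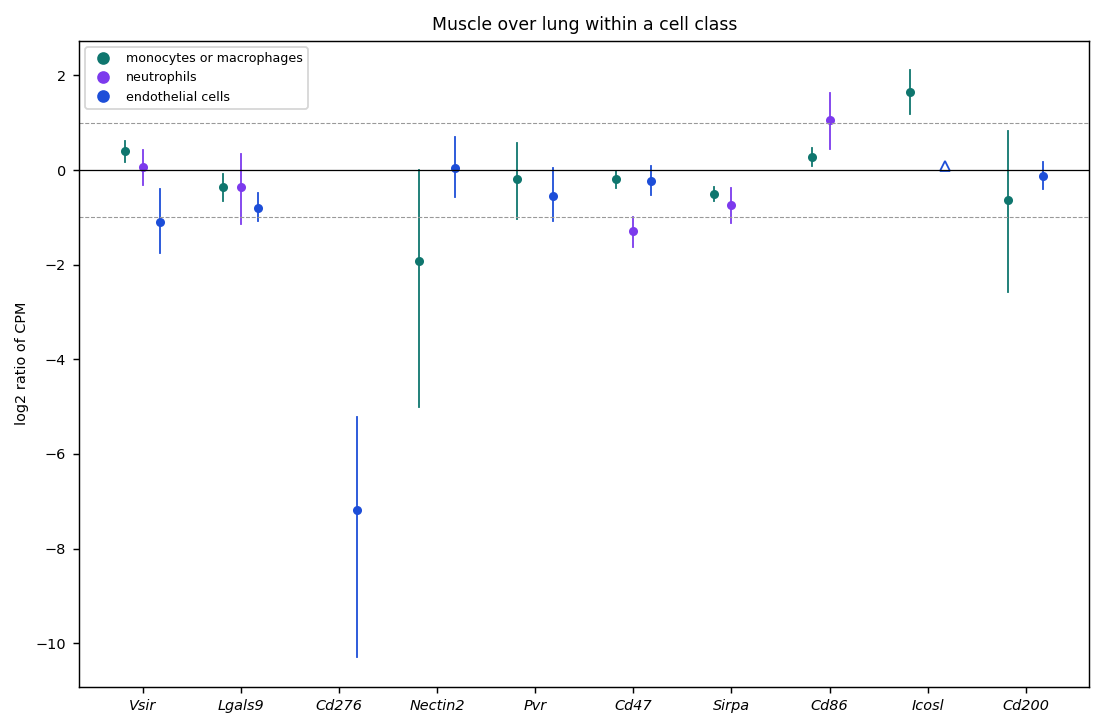
Log2 ratio of CPM in muscle over lung for each gene within monocytes or macrophages, neutrophils and endothelial cells, with exact 95% intervals of counting error. Dashed lines mark 2-fold and the open triangle is a bound. Most points lie between the dashed lines. The exceptions below them are Nectin2 in monocytes or macrophages (2 muscle counts), Cd47 in neutrophils, and Vsir and Cd276 in endothelial cells. Those above them are Icosl in monocytes or macrophages and Cd86 in neutrophils, the last resting on 1 cell.

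Nectin2 stood higher in endothelial cells of both tissues and in lung epithelial cells than in leukocytes. It stood at 69.2 CPM in muscle endothelial cells (60.6 to 78.7 CPM, 232 counts) and 14.7 CPM in muscle stromal cells, against 1.61 CPM in muscle leukocytes (4 counts). It stood at 67.4 CPM in lung endothelial cells (24 counts) and 98.1 CPM in lung epithelial cells (379 counts), against 5.10 CPM in lung leukocytes. The ratio to leukocytes was 42.8 in muscle endothelial cells (16.5 to 159) and 9.12 in muscle stromal cells (3.19 to 35.8), the stromal call being lost at a gate purity of 95% or with at most 5% mitochondrial UMIs, where stromal cells fell under the count minimum and the ratio was at lowest 7.28. Stromal cells were not alike, with 51.7 CPM in smooth muscle cells (8 counts), 30.7 CPM in pericytes (5 counts) and 5.38 CPM in fibroblasts (7 counts). The fibroblast interval (2.16 to 11.1 CPM) overlapped that of muscle leukocytes (0.440 to 4.13 CPM). In lung the ratio to leukocytes was 13.2 in endothelial cells (8.20 to 20.5) and 19.2 in epithelial cells (15.8 to 23.5). Without the lung endothelial cell with the most Nectin2 counts, which held 7 of the 24, that class fell under the count minimum, with a log2 ratio of 3.50 against 3.72 with it, and the call was also lost without the deepest 10% of cells. Muscle and lung endothelial cells did not differ by 2-fold, with a ratio of 1.03 (0.672 to 1.63). The share of cells with a UMI at a common depth of 1000 UMIs was 6.59% in muscle endothelial cells and 0 of 298 in muscle leukocytes, and 17.2% and 1.31% at full depth. T or NK cells of lung, which should lack the gene, gave 0 of 553 at the common depth and 0.527% at full depth. Among the narrow classes of lung leukocytes, dendritic cells had the highest level, 13.7 CPM, with 16 counts.

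Pvr followed the vessels more than the leukocytes and differed among vessel types. It stood at 63.8 CPM in muscle endothelial cells, 26.8 CPM in muscle stromal cells and 23.4 CPM in muscle leukocytes. In lung it stood at 92.7 CPM in endothelial cells (33 counts), 34.7 CPM in epithelial cells and 15.2 CPM in leukocytes. The ratio of endothelial cells to leukocytes was 2.73 in muscle (2.03 to 3.71) and 6.12 in lung (4.16 to 8.72). In lung epithelial cells it was 2.29 (1.87 to 2.78), a call that was lost when each cell was weighted equally or the deepest 10% of cells were left out, with a lowest ratio of 1.40. Within the muscle endothelium Pvr was 124 CPM in venous cells (97.4 to 156 CPM), 92.2 CPM in arterial cells (46.0 to 165 CPM, 11 counts) and 49.8 CPM in capillary cells (38.6 to 63.3 CPM). The ratio of venous to capillary cells was 2.49 (1.77 to 3.53), and 1.85 with at most 5% mitochondrial UMIs, where the call was lost. Venous cells also had a greater median depth, 5238 UMIs against 2756 UMIs in capillary cells. Thinned likewise, 15.2% of venous and 4.14% of capillary cells had a UMI of Pvr, against 41.0% and 11.2% at full depth and 1.08% of lung T or NK cells. The 29 satellite cells, the muscle stem cells, had 18 counts of Pvr, or 183 CPM (108 to 289 CPM), in 37.9% of cells.

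Cd200 was high in vessel cells and low in phagocytes. It stood at 297 CPM in muscle endothelial cells (279 to 316 CPM, 997 counts) and 47.9 CPM in muscle stromal cells, against 6.86 CPM in muscle leukocytes. In lung it stood at 323 CPM in endothelial cells (267 to 388 CPM, 115 counts) and 1.81 CPM in epithelial cells, against 13.7 CPM in leukocytes. The ratio of endothelial cells to leukocytes was 43.3 in muscle (26.9 to 74.7) and 23.6 in lung (19.0 to 29.1), and the ratio of muscle to lung endothelial cells was 0.920 (0.758 to 1.13). Within the muscle endothelium the order was capillary 332 CPM, venous 303 CPM and arterial 277 CPM, and the intervals of neighbours in that order overlapped. At the common depth 21.5% of muscle endothelial cells had a UMI, against 0 of 60 muscle neutrophils, which should lack the gene, and at full depth the shares were 48.7% and 1.64%. Schwann cells of muscle, the glia of nerves, stood at 126 CPM (81.0 to 188 CPM, 24 counts), and the 29 satellite cells at 243 CPM (156 to 362 CPM, 24 counts).

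Among the narrow classes of leukocytes Cd200 was found in lymphocytes and dendritic cells rather than in other myeloid cells. In lung it stood at 74.4 CPM in dendritic cells and 57.3 CPM in B cells. It stood at 27.0 CPM in T or NK cells, 5.30 CPM in monocytes or macrophages and 3.41 CPM in neutrophils. The log2 ratio of dendritic cells to monocytes or macrophages was 3.81, a ratio between 9.60 and 20.8 by its interval. B cells exceeded T or NK cells 2.13-fold (1.47 to 3.09), but at a gate purity of 95% the log2 ratio was -0.05 and the call was lost.

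Lgals9 was present in nearly every class, with its highest levels in lung endothelial cells and muscle capillary cells. It stood at 183 CPM in muscle endothelial cells, 74.7 CPM in muscle stromal cells and 73.5 CPM in muscle leukocytes. It stood at 318 CPM in lung endothelial cells, 109 CPM in lung epithelial cells and 90.5 CPM in lung leukocytes. The log2 ratio of endothelial cells to leukocytes was 1.32 in muscle (1.08 to 1.57) and 1.81 in lung (1.53 to 2.08). A single lung endothelial cell held 35 of the 113 counts, and over the alternatives run, one of which left that cell out, the lung ratio ranged from 2.35 to 3.59. In muscle, capillary cells stood at 256 CPM, venous cells at 116 CPM and arterial cells at 83.8 CPM, so that venous cells had 0.453 of the capillary level (0.344 to 0.588), the opposite order to Pvr. At a gate purity of 60% this ratio was 0.553 and the call was lost. Lung monocytes or macrophages stood at 124 CPM and muscle pericytes at 117 CPM (19 counts), with intervals that overlapped that of venous cells. Lung dendritic cells stood low, at 24.8 CPM, 0.200 of the level of lung monocytes or macrophages (0.134 to 0.290). Schwann cells had 1 count.

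Cd276 was near 0 in muscle. Muscle endothelial cells had 2 counts, muscle leukocytes 1 count, and muscle stromal cells 11 counts (5.78 CPM), all 11 of them in fibroblasts. In lung it stood at 87.1 CPM in endothelial cells (31 counts), 20.4 CPM in epithelial cells (79 counts) and 1.43 CPM in leukocytes (40 counts). The 27 lung stromal cells had 17 counts, 54.7 CPM (31.9 to 87.6 CPM). The ratio to lung leukocytes was 61.0 in endothelial cells (36.9 to 100) and 14.3 in epithelial cells (9.68 to 21.5). Muscle endothelial cells had 0.00685 of the level of lung endothelial cells (0.000794 to 0.0269), though the gated vessel types differ between them, as given above. Both endothelial ratios rest on few lung cells, since 1 cell held 11 of the 31 counts, and without the deepest 10% of cells the class fell under the count minimum and neither call was made, with log2 ratios of 4.97 over lung leukocytes and -5.53 for muscle over lung endothelial cells. At the common depth 5.41% of lung endothelial cells, 1.51% of lung epithelial cells and 0.362% of lung T or NK cells had a UMI. Unthinned, the shares were 25.6%, 16.3% and 0.351%.

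Cd86 was nearly confined to leukocytes. It stood at 1.49 CPM in muscle endothelial cells (5 counts) and 0.526 CPM in muscle stromal cells (1 count), against 254 CPM in muscle leukocytes (630 counts). Lung endothelial cells had no count and lung epithelial cells 2.85 CPM (11 counts), against 167 CPM in lung leukocytes (4668 counts). The 0 of 39 lung endothelial cells allows a share of up to 7.69% by the floor of 3 counts and 9.03% by the exact interval. Set at that floor, the level was 0.0506 of that in lung leukocytes, and the exact interval of the ratio reaches up to 0.0623. Among the narrow classes of lung leukocytes the order was dendritic cells 346 CPM, monocytes or macrophages 177 CPM, B cells 158 CPM, neutrophils 53.8 CPM and T or NK cells 23.8 CPM. The intervals of B cells and monocytes or macrophages overlapped, and those of the other neighbours did not. The 2368 of 6908 lung leukocytes outside these classes have no place in this order, and their Cd86 level is not given here. B cells exceeded T or NK cells 6.61-fold (4.78 to 9.31), and dendritic cells exceeded monocytes or macrophages 1.95-fold (1.74 to 2.18). Thinned to the common depth, 28.5% of dendritic cells and 58 of 446 B cells of lung had a UMI, against 0 of 37 lung endothelial cells. Unthinned the shares were 62.8%, 22.6% and 0 of 39.

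In muscle, Cd86 stood at 215 CPM in monocytes or macrophages and 113 CPM in neutrophils. The neutrophil value rests on 1 cell, which held 18 of the 27 counts. The ratio of muscle to lung neutrophils was 2.09 (1.36 to 3.11), but without the top cell on each side the log2 ratio was -0.31, and at a gate purity of 95% it was -2.19. The highest level in muscle was in 45 leukocytes that fitted no narrow class, at 491 CPM (419 to 573 CPM), of which 49 of 162 counts lay in 1 cell. These cells were grouped after the values had been seen. Their summed dendritic markers stood at 316 CPM, against 1740 CPM in muscle dendritic cells, and their summed monocyte or macrophage markers at 947 CPM, against 7775 CPM in muscle monocytes or macrophages.

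Icosl was higher in leukocytes than in each other lineage compared, and of the 16 classes its level was highest in lung B cells. It stood at 8.95 CPM in muscle endothelial cells and 9.47 CPM in muscle stromal cells, against 54.5 CPM in muscle leukocytes. In lung there was no count in endothelial cells, 2.59 CPM in epithelial cells and 27.7 CPM in leukocytes. Endothelial cells had 0.164 of the leukocyte level in muscle (0.107 to 0.245) and 0.304 of it in lung with the floor of 3 counts in place of 0, where the exact interval reaches up to 0.375. In lung it stood at 78.4 CPM in B cells and 61.6 CPM in dendritic cells, with overlapping intervals, and at 35.3 CPM in neutrophils, 15.9 CPM in monocytes or macrophages and 4.15 CPM in T or NK cells. B cells exceeded T or NK cells 18.9-fold (9.25 to 45.0). At the common depth 11.0% of B cells and 0.181% of T or NK cells, which should lack the gene, had a UMI, and at full depth 20.8% and 1.41%.

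Icosl was the 1 gene called higher in muscle than in lung monocytes or macrophages. Monocytes or macrophages stood at 50.1 CPM in muscle (59 counts) and 15.9 CPM in lung (126 counts), a ratio of 3.15 (2.27 to 4.32). Over the 12 alternatives run the ratio ranged from 2.61 to 3.50 and the call was kept. After thinning, 6.30% of muscle and 1.90% of lung monocytes or macrophages had a UMI, and 33.1% and 8.70% at full depth. Muscle and lung monocytes or macrophages differed in median depth, 8701 and 5395 UMIs. In muscle endothelium Icosl stood at 27.2 CPM in venous cells (16 counts), 33.5 CPM in arterial cells (4 counts) and 2.98 CPM in capillary cells (4 counts), values under the count minimum for a call.

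Vsir was highest in neutrophils of both tissues. It stood at 267 CPM in muscle neutrophils (206 to 341 CPM) and 254 CPM in lung neutrophils (241 to 267 CPM), a ratio of 1.05 (0.806 to 1.35). Next came monocytes or macrophages, at 161 CPM (190 counts) in muscle and 122.7 CPM (972 counts) in lung. Lung neutrophils exceeded lung monocytes or macrophages 2.07-fold (1.91 to 2.25), and muscle neutrophils exceeded muscle monocytes or macrophages 1.66-fold (1.23 to 2.21). Lung T or NK cells followed at 68.9 CPM, and B cells had 0.252 of that level (0.154 to 0.394). Endothelial cells stood at 31.3 CPM in the muscle library and 67.4 CPM in the lung library (24 counts), and stromal cells of muscle at 32.1 CPM. The ratio of muscle to lung endothelial cells was 0.464 (0.296 to 0.757), and this call was lost with TMM scaling, without doublet-scored cells and without the top cell, with a log2 ratio of -0.94 at its nearest to 0. Endothelial cells had 0.218 of the leukocyte level in muscle (0.174 to 0.272) and 0.505 in lung (0.323 to 0.752). Lung epithelial cells stood at 5.18 CPM, and 0.503% of them had a UMI at the common depth, against 28.3% of muscle and 21.3% of lung neutrophils. At full depth these shares were 3.38%, 50.8% and 42.5%. Among the 61 counts of muscle stromal cells 58 lay in fibroblasts, at 44.6 CPM, while 56 pericytes had no count. With the floor of 3 counts the ratio was 2.42, its exact lower limit was 1.90, and without the deepest 10% of cells it was 1.87 and the call was lost.

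Cd47, the ligand, was present in every class, whereas Sirpa, its receptor, was highest in myeloid cells. Cd47 stood at 245 CPM in endothelial cells, 279 CPM in stromal cells and 272 CPM in leukocytes of muscle, with ratios to leukocytes of 0.903 (0.815 to 1.00) and 1.03 (0.914 to 1.15). In lung it stood at 287 CPM in endothelial cells, 189 CPM in epithelial cells and 450 CPM in leukocytes. Lung neutrophils stood above every other class at 891 CPM (867 to 915 CPM), above lung monocytes or macrophages by 1.66 on the log2 scale (1.58 to 1.73). Muscle neutrophils stood at 363 CPM (291 to 448 CPM), 0.408 of the lung level (0.326 to 0.504), and this call was kept under the 12 alternatives run, with ratios from 0.361 to 0.481. At the common depth 18.3% of 60 muscle and 51.5% of 2024 lung neutrophils had a UMI of Cd47, and at full depth 50.8% and 71.1%. Median depth was 3269 UMIs in muscle and 2222 UMIs in lung neutrophils, and the median mitochondrial share 4.25% and 0.694%.

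Sirpa stood at 5.96 CPM in endothelial cells, 57.3 CPM in stromal cells and 278 CPM in leukocytes of muscle, and at 33.7 CPM in endothelial cells, 8.54 CPM in epithelial cells and 348 CPM in leukocytes of lung. Endothelial cells had 0.0214 of the leukocyte level in muscle (0.0130 to 0.0334) and 0.0968 in lung (up to 0.169). Monocytes or macrophages had 339 CPM in the muscle library and 483 CPM in the lung library, while neutrophils were at 267 CPM in the muscle library and at 445 CPM in the lung library. Lung dendritic cells stood at 90.6 CPM, 0.188 of the level of lung monocytes or macrophages (0.153 to 0.228). Lung T or NK cells, which should lack the gene, had a UMI in 1.81% of cells at the common depth, against 35.1% of lung monocytes or macrophages and 3.51% and 70.8% at full depth. Muscle fibroblasts stood above that at 9.17% and 72.2 CPM. Within the muscle endothelium Sirpa had 27.2 CPM in venous cells (16 counts) and 0.744 CPM in capillary cells (1 count), a ratio of 36.6 with an interval from 5.69 to 1536, under the count minimum for a call.

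**Figure D4:**
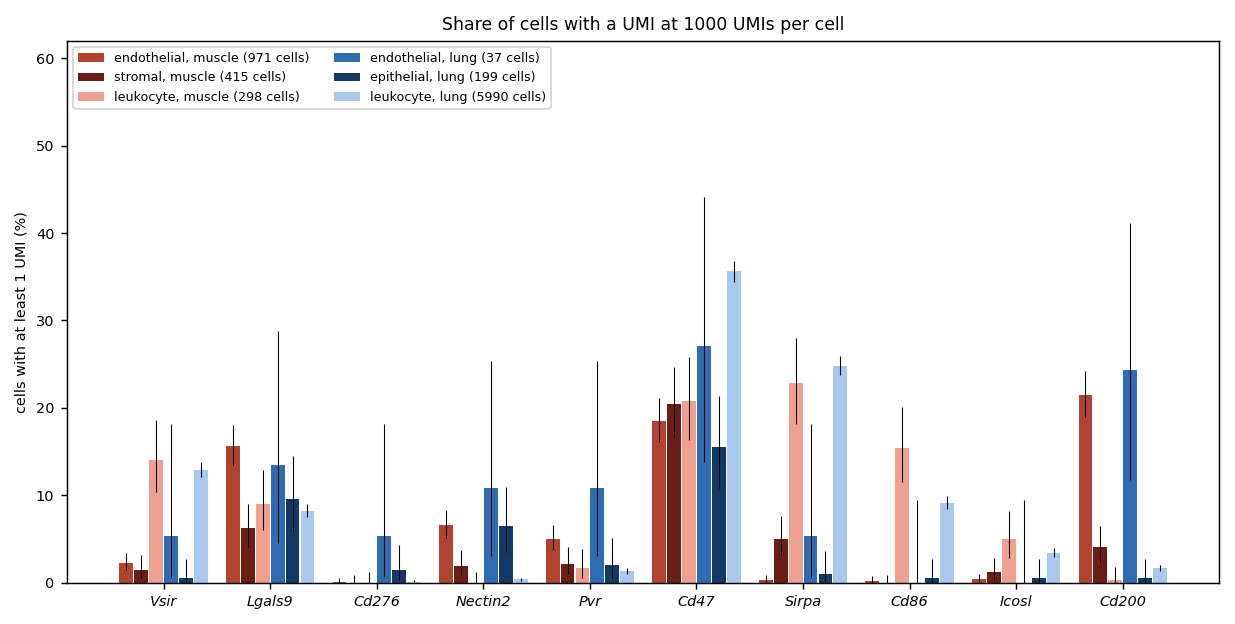
Share of cells with at least 1 UMI of each gene (bars, in percent, from 0) after every cell was thinned to 1000 UMIs and shallower cells were left out, with exact 95% binomial intervals. Muscle endothelial, stromal and leukocyte cells are in reds and lung endothelial, epithelial and leukocyte cells in blues. The Cd200 bars are tallest in endothelial cells, at 21.5% in muscle and 24.3% in lung, and the Sirpa and Cd86 bars are tallest in leukocytes.

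The 6 comparisons between narrow classes were chosen after the values had been seen. Venous over capillary cells of muscle had 1 of 6 genes higher (Pvr) and 1 lower (Lgals9), beside 29.5% of all genes at least 2-fold apart, 845 of 7057 genes higher and 1239 lower. Each of these calls was lost under 1 alternative, as given above for the gene. Fibroblasts over pericytes of muscle had 2 of 4 higher (Vsir and Pvr, Pvr with 2 pericyte counts and a ratio of 2.44, from 0.632 to 20.9), beside 40.4% of all genes apart, 29.9% higher and 10.5% lower. Both calls were lost without the deepest 10% of cells, and that of Pvr also at a gate purity of 60%, where its ratio was 1.43. Neutrophils over monocytes or macrophages had 0 of 6 apart in muscle, beside 61.0% of all genes, 12.7% higher and 48.3% lower. In lung 3 of 9 were higher (Cd47, Icosl and Vsir) and 2 lower (Cd86 and Nectin2), beside 48.3% of all genes, 16.4% higher and 31.9% lower. At a gate purity of 60% the Vsir and Cd86 calls were lost, with ratios of 1.95 and 0.519, against 2.07 and 0.303 at 80%. Dendritic cells over monocytes or macrophages of lung had 2 of 8 higher (Cd200 and Icosl) and 3 lower (Vsir, Lgals9 and Sirpa), beside 29.7% of all genes, 10.6% higher and 19.1% lower. B over T or NK cells of lung had 3 of 7 higher (Icosl, Cd86 and Cd200) and 1 lower (Vsir), beside 26.1% of all genes, 7.42% higher and 18.7% lower.

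Classes under 30 cells are given side by side with no ratio. In the 13 muscle dendritic cells Cd86 stood at 153 CPM (19 counts) and Cd47 at 387 CPM, against 346 CPM and 421 CPM in the 148 lung dendritic cells. Icosl and Cd200 stood at 48.3 CPM each in muscle dendritic cells (6 counts each), against 61.6 CPM and 74.4 CPM in lung dendritic cells. In muscle stromal cells Nectin2 stood at 14.7 CPM, Pvr at 26.8 CPM and Sirpa at 57.3 CPM, against 41.8, 38.6 and 32.2 CPM in the 27 lung stromal cells.

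Single cells mostly held UMIs of 0 or 1 of these genes at the common depth. The mean number of the 10 genes with a UMI in a cell thinned to 1000 UMIs was 0.706 in endothelial cells, 0.427 in stromal cells and 0.893 in leukocytes of muscle. It was 1.03 in endothelial cells, 0.382 in epithelial cells and 0.977 in leukocytes of lung. Among narrow classes it was highest in lung neutrophils, at 1.24, where 35.6% of cells had at least 2 of the genes, against 0.867 and 21.7% in muscle neutrophils. Thinning left out 126 of the 325 lung epithelial cells and 918 of the 6908 lung leukocytes, but 14 of the 985 muscle endothelial cells.

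Most binding partners of these proteins that had enough counts to compare had higher levels in leukocytes than in the other lineages, as counted over a list of 12 genes (Havcr2, Selplg, Tigit, Cd226, Cd96, Pvrig, Nectin3, Thbs1, Cd28, Ctla4, Icos and Cd200r1). In muscle endothelial cells 1 of 6 partners with enough counts was at least 2-fold higher than in leukocytes and 5 were lower, beside 32.8% and 17.6% of all genes. In muscle stromal cells 1 of 6 was higher and 4 were lower, beside 35.0% and 16.4% of all genes. The 1 in endothelial cells was Nectin3, a nectin that binds CD112 and CD155, at 48.0 CPM in endothelial cells and 2.02 CPM in leukocytes, a ratio of 23.8 (9.98 to 74.2). Muscle stromal cells had the same direction for Nectin3, at 45.2 CPM, and lung endothelial cells stood at 75.9 CPM against 0.178 CPM in lung leukocytes. Cd200r1, the receptor of CD200, had 1 count in muscle endothelial cells and stood at 98.9 CPM in muscle leukocytes. Lung endothelial cells had 1 of 12 partners higher and 9 lower, beside 12.2% and 19.3% of all genes. Of the 9, Havcr2, Tigit, Cd226, Cd28 and Icos had no count in the 39 lung endothelial cells and were called by the floor of 3 counts. Set at that floor, the ratios of Tigit (0.476), Cd226 (0.443) and Cd28 (0.385) lay near 2-fold. Lung epithelial cells had 0 of 11 higher and 10 lower, beside 20.3% and 27.5% of all genes.

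Between tissues the partners differed in both directions. Of 11 partners compared in leukocytes, 2 were at least 2-fold higher in muscle and 5 lower, beside 4.10% and 19.8% of all genes. The 5 lower were the lymphocyte receptor genes Tigit, Cd96, Cd28, Ctla4 and Icos, with ratios from 0.0220 for Ctla4 to 0.314 for Cd28, in libraries where T or NK cells were 1.97% of muscle and 8.24% of lung leukocytes. The 2 higher were Cd226, with 99.3 CPM in muscle leukocytes against 19.1 CPM in lung leukocytes, and Cd200r1, with 98.9 CPM against 47.1 CPM. Cd226, the activating receptor for CD155 and CD112, stood in muscle monocytes or macrophages at 90.8 CPM (107 counts in 42 of 130 cells), against 2.02 CPM in lung monocytes or macrophages (16 counts in 7 of 1172 cells), a ratio of 45.0 (26.5 to 81.5). All muscle leukocytes held 246 counts of Cd226, with 6 in dendritic cells and 0 in neutrophils. A large part thus lay in other leukocytes, most of which fitted no narrow class. Thinned likewise, 5.51% of muscle and 0.0998% of lung monocytes or macrophages had a UMI of Cd226. Thbs1, the gene of thrombospondin 1, a secreted protein that binds CD47, was lower in muscle than in lung monocytes or macrophages, at 296 and 1056 CPM.

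For each gene the genes with the most like pattern over the 16 classes were looked up among 10245 candidates, by Pearson r of log2(CPM + 10). These are descriptions over classes that share 2 libraries and their depth. Cd86 was most like Napsa (r = 0.975), Irf5 and Nckap1l. Pvr was most like Pde9a (r = 0.929), Sema3f and Tspan9, and Cd276 most like Exoc3l4 (r = 0.911), Meis2 and Akr1b8. Cd276 itself had 151 counts, under the 200 asked of candidates, with 79 in lung epithelial and 31 in lung endothelial cells. Sirpa was most like Pla2g15 (r = 0.903), I830077J02Rik and Pla2g7. Nectin2 was most like Epha2 (r = 0.898), Neurl1b and Golgb1, and Cd200 most like Caskin2 (r = 0.897), Plpp1 and Slc41a1. Vsir was most like Ninj1 (r = 0.890), Sh2b2 and Tlr2, and Icosl most like Plcg2 (r = 0.867), Uvrag and Fgd2. Lgals9 was most like Ywhab (r = 0.841), Lpar6 and Mitd1, and Cd47 most like Rnf19b (r = 0.830), Gm2396 and Gm26535.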

How the data were processed

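Single-cell RNA was measured in 1 muscle and 1 lung library made with the 10x Chromium Single Cell 5' v2 kit, per the labels' protocols. The deposited tables hold unnormalized UMI counts, which the authors made with Cell Ranger 7.0.1 and build GRCm39, as given in the submitters' processing notes. Annotation release, intron counting and cell calling are not given in the sources used here. No deposited barcode held fewer than 500 UMIs.

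Counts were summed over marker-gated cells and divided by the class total to give CPM. Python 3.11.15, numpy 2.4.6, scipy 1.17.1 and pandas 2.3.3 were used, with scikit-learn 1.9.0 for doublet scores and edgeR 4.0.16 for TMM factors only. The gates took 1800 muscle and 7299 lung cells. A cell with markers of several lineages was left ungated, and no doublet caller was used in the main values. As an alternative, doublet scores removed 40 muscle and 537 lung cells. The size rule was tried on simulated counts with counting error only and planted differences larger than 2-fold. The gates were tried on simulated cells with no background RNA. Neither setting covers ratios near 2-fold or ratios with few counts on a side. The genes named are the 10 described, 12 binding partners and, for each of the 10, the 3 genes of most like pattern. These lists and the gates were chosen with earlier results of these data known. Because each tissue has 1 library, no test or p-value is given. Counts from 5' libraries are not scaled by length, so levels are compared between classes for 1 gene, not between genes. Alternatives changed scaling, cell weights, gates, filters and doublet removal, and 2 more, leaving out the deepest cells or the top cell, were added after seeing the data.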

Additional observations from a re-analysis of the deposited data

Results flagged for a closer look

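Vsir stood out because its muscle over lung log2 ratio had opposite signs in different cell types, 0.39 in monocytes or macrophages and -1.11 in endothelial cells. The difference between these ratios was not tested, and the endothelial ratio rests on 24 lung counts and on cells of differing vessel types.

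Barcodes over the mitochondrial limit, which no comparison used, also held UMIs of these genes. In the 3301 muscle barcodes of this kind Vsir stood at 17.2 CPM, Lgals9 at 40.3 CPM, Nectin2 at 21.6 CPM and Pvr at 19.1 CPM. Cd47 stood at 93.0 CPM there, Sirpa at 22.7 CPM, Cd86 at 8.69 CPM, Icosl at 2.97 CPM and Cd200 at 74.8 CPM. In the 273 such lung barcodes Vsir stood at 39.5 CPM, Lgals9 at 42.8 CPM, Cd276 at 16.5 CPM, Nectin2 at 52.7 CPM and Pvr at 31.3 CPM. Cd47 stood at 183 CPM there, Sirpa at 93.8 CPM, Cd86 at 36.2 CPM and Icosl at 6.58 CPM. Each was above the limit that a count of 0 allows.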

How the results depend on the processing

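Of 57 ratios at least 2-fold apart, 42 kept the call under every alternative run, and 14 of 53 others were called under at least 1. Signs turned for Cd86 in muscle over lung neutrophils (log2 ratio 1.07, -2.19 at 95% gate purity and -0.31 without the top cell) and for Cd200 in B over T or NK cells (1.09, -0.055 at 95% purity). The count of genes apart in muscle over lung leukocytes was 2, and 4 with equal cell weights, at 95% purity or without doublet-scored cells, and 1 at 60% purity. In neutrophils it was 2, and 1 at 60% purity or with up to 20% mitochondrial UMIs. In endothelial cells it was 2, and 1 with edgeR TMM scaling, without doublet-scored cells, without the deepest 10% of cells or without the top cell. Venous over capillary cells had 2, and 4 with no minimum count. Fibroblasts over pericytes had 2 (Vsir and Pvr). Without the deepest 10% of cells both were lost and Sirpa alone was called, a count of 1. Sirpa was called too, for a count of 3, with TMM, with equal cell weights, with up to 20% mitochondrial UMIs or without the top cell. Neutrophils over monocytes or macrophages in muscle had 0, 2 with TMM, and 1 with equal cell weights, at 95% or 60% purity, with up to 20% mitochondrial UMIs or without the top cell. TMM scaling moved all log2 ratios together, by 0.45 in that last comparison, 0.24 in muscle over lung neutrophils and -0.22 in endothelial over leukocyte cells of either tissue. The cause of the other changes was not tested. At 95% purity 21 lung endothelial cells and 12 pericytes were left, too few to compare. No paired analysis was possible because each tissue has 1 library. Depth limits the lung endothelial values (39 cells, 355850 UMIs) and those of narrow muscle classes, such as arterial cells (31 cells, 119303 UMIs).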
